A study of Homo sapiens with 12 samples.

Results

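The p53 target genes are genes whose transcription is known to be raised by the tumour suppressor p53. A literature list of 39 names was looked up in the authors' edgeR tables, and 38 genes of the 12756 tabulated were found. The remaining name, TIGAR, is the current symbol of C12orf5, the name under which that gene is tabulated, and PIDD is the older symbol of PIDD1. The names were listed for their published link to p53, with earlier results of these data known, and no value of the present tables enters the rule.

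The genes were followed in HCT116, an established human colorectal carcinoma line, by sequencing of polyadenylated RNA from cells collected 48 hours after seeding. The groups were cells with a knockout of AGO2 (AGO2_KO), cells with a knockout of ANKRD52 (ANKRD52_KO), cells with a knockout of both ANKRD52 and CSNK1A1 (ANKRD52;CSNK1A1_KO, here the double knockout), and the parental line, with 3 labelled replicates each. AGO2 encodes the Argonaute that loads microRNAs and guides them to messages, ANKRD52 encodes a subunit through which the phosphatase PP6 is directed to substrates, and CSNK1A1 encodes casein kinase 1 alpha. The study asked how the phosphorylation of Argonaute serves microRNA silencing, and it used the knockouts to find messages that change when a factor is missing. The labels do not say whether a knockout line is 1 clone or whether replicates were separate cultures, so p-values speak of the spread among these libraries alone, and that spread may be technical.

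p53 is a transcription factor that DNA damage and other stresses stabilise. Its targets stop the cell cycle, repair DNA, tune metabolism or start cell death, and some of them, such as MDM2, feed back to lower p53 itself. Casein kinase 1 alpha is known as a binding partner of MDM4, and several p53 targets, CDKN1A above all, are known targets of microRNAs of the miR-17 family.

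The values are the authors' fold changes of each knockout over the parental line and their adjusted p-values, with genes called at an adjusted p under 0.05. Levels per group are CPM, reads of a gene scaled to a common library total, implied by the mean level and the 3 fold changes. They are not per gene length, so levels are compared between groups within a gene and not between genes. Values per library and library depths were not analysed here, so no spread of single libraries is given. The standard error (SE) beside a log2 fold change is approximate and was rebuilt from the likelihood ratio.

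The targeted AGO2 fell by 1.07 (log2) in AGO2_KO cells in the authors' deposited table (adjusted p = 0.0477). ANKRD52 stood at 0.03 in ANKRD52_KO cells (adjusted p = 0.915) and fell by 0.65 in the double knockout (adjusted p = 2.32e-05), per the authors' deposited tables. In AGO2_KO cells ANKRD52 rose by 0.85 (adjusted p = 8.78e-07) in the authors' deposited table. CSNK1A1 RNA fell by 2.42 in the double knockout (adjusted p = 1.71e-10) in the authors' deposited table. The ANKRD52_KO group was thus not separated from the parental line by ANKRD52 RNA. Of 9 listed epithelial markers 8 were measured, and 6 had a mean log2 CPM of at least 1. EPCAM, KRT8, KRT18 and KRT19 had implied parental levels of 349, 1530, 619 and 677 CPM. Others on the list were lower, with CDH1 at 114 CPM, CDX2 at 28.0 CPM and KRT20 at 1.70 CPM.

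The p53 targets as a group moved differently in the 3 knockouts. In AGO2_KO cells 16 of the 38 rose and 0 fell in the authors' deposited table, where 6.1% of all genes were called, 3.38% higher and 2.72% lower. In ANKRD52_KO cells 3 rose and 5 fell, where 13.7% of all genes were called, 7.62% higher and 6.04% lower, in the authors' deposited table. In the double knockout 28 rose and 0 fell, where 43.0% of all genes were called, 22.9% higher and 20.1% lower, in the authors' deposited table. The shares of the members that rose were 42.1%, 7.89% and 73.7% in AGO2_KO cells, ANKRD52_KO cells and the double knockout, so the rising share lay above the background in AGO2_KO cells and in the double knockout and near it in ANKRD52_KO cells, where 13.2% of the members fell. At an unadjusted p under 0.05 edgeR gave 21 higher and 0 lower in AGO2_KO cells, and 28 higher and 0 lower in the double knockout.

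The median log2 fold change of the 38 genes was 0.44 in AGO2_KO cells, -0.07 in ANKRD52_KO cells and 0.62 in the double knockout, in the authors' deposited tables. Over all genes the medians were 0.00, 0.00 and 0.01. The mean of the members was 0.02 in ANKRD52_KO cells, of the opposite sign to their median, and 1.02 in the double knockout. By implied level, 26 of the 38 genes were highest in the double knockout, 7 in AGO2_KO cells, 0 in ANKRD52_KO cells and 5 in the parental line. The lowest level was in ANKRD52_KO cells for 19 genes and in the parental line for 17. These orders were not counted over all genes, and they include differences between groups that were not called. In RNA of whole cultures, more cells with a high level and a higher level per cell cannot be told apart.

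**Figure D1:**
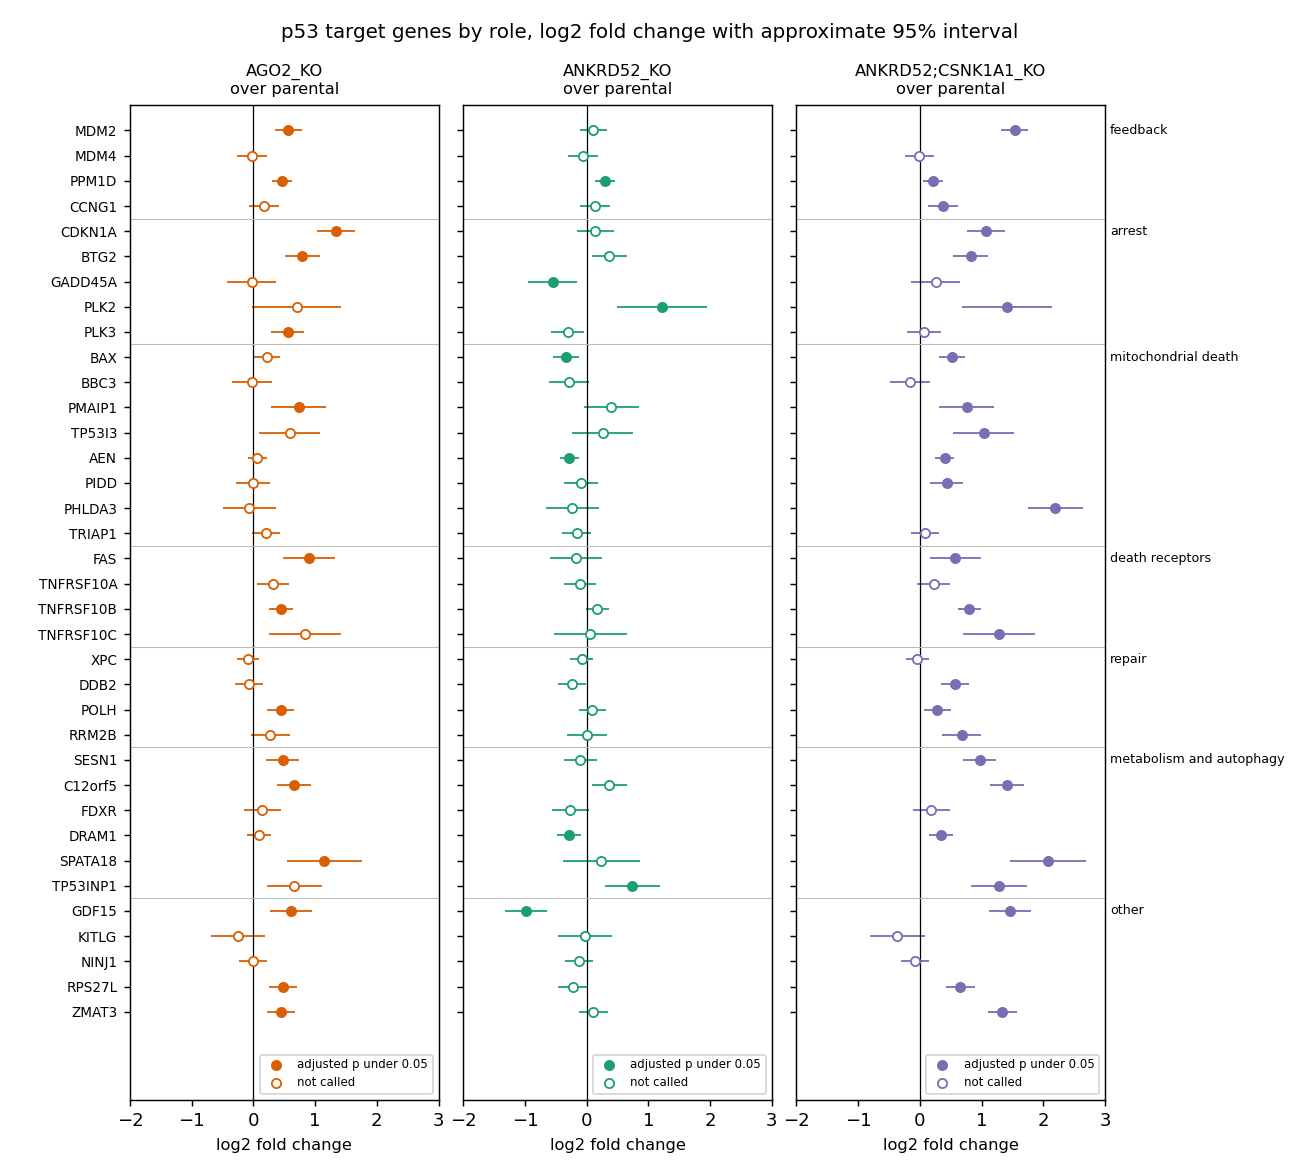
Log2 fold change over the parental line (horizontal axis) of 36 p53 target genes ordered by role, in AGO2_KO cells, ANKRD52_KO cells and the double knockout. Bars are approximate 95% intervals and filled points have a deposited adjusted p under 0.05. EDA2R and TRIM22 are left out because their double knockout values lie beyond the axis. Filled points lie right of 0 in the first and last panels, and on both sides in the middle one.

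Calls depended on the reference distribution in the single knockouts. When the deposited likelihood ratios were read against an F distribution (1 and 8 degrees of freedom), which allows for the few libraries, the calls left were 0 members in AGO2_KO cells (20 higher and 0 lower at an unadjusted p under 0.05), 0 in ANKRD52_KO cells (5 higher and 5 lower unadjusted) and 24 in the double knockout. Nearly all genes lost their calls in the single knockouts under this reading, so the loss was not particular to the members. The share of all genes left in the double knockout is not given. Less the median of the 40 nearest genes on the chromosome, PMAIP1 and ZMAT3 lost their calls in AGO2_KO cells, BAX and PPM1D in ANKRD52_KO cells, and FAS and PPM1D in the double knockout.

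The genes that act back on p53 were MDM2, the ubiquitin ligase that marks p53 for degradation, its partner MDM4, the phosphatase PPM1D, which removes damage-induced phosphates from p53, and cyclin G1 (CCNG1), which acts with MDM2. MDM2 stood at an implied 378 CPM in AGO2_KO cells, 275 CPM in ANKRD52_KO cells and 740 CPM in the double knockout, against 255 CPM in parental cells. It rose 1.48-fold in AGO2_KO cells (log2 fold change 0.57, SE 0.11, adjusted p = 7.51e-05) and 2.90-fold in the double knockout (1.54, SE 0.11, adjusted p = 6.99e-41) in the authors' deposited tables. The ANKRD52_KO value was not called, at 0.11 (adjusted p = 0.571) in the authors' deposited table. The double knockout was thus highest and ANKRD52_KO cells lay close to the parental line.

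PPM1D was the single member called higher in all 3 knockouts. Its implied levels were 121 CPM in AGO2_KO cells, 108 CPM in ANKRD52_KO cells and 102 CPM in the double knockout, against 87.8 CPM in parental cells. In the authors' deposited tables these were rises of 1.38-fold, 1.23-fold and 1.16-fold (adjusted p = 1.11e-05, 0.00568 and 0.0273). CCNG1 rose 1.30-fold in the double knockout (adjusted p = 0.0102) in the authors' deposited table, and its values of 0.17 and 0.14 in AGO2_KO and ANKRD52_KO cells were not called (adjusted p = 0.454 and 0.538). MDM4 was called in 0 of the 3 knockouts, with implied levels of 65.8 CPM in AGO2_KO cells, 64.1 CPM in ANKRD52_KO cells, 66.3 CPM in the double knockout and 66.8 CPM in parental cells. Its log2 fold changes were -0.02, -0.06 and -0.01 in the authors' deposited tables, each with an SE of 0.12. The 40 nearest genes of MDM4 had a median of 0.41 in the double knockout, and less that median MDM4 stood at -0.42 (adjusted p = 0.00218).

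Among the genes of cell cycle arrest, CDKN1A encodes p21, the inhibitor of cyclin-dependent kinases, and BTG2 an antiproliferative factor that binds the deadenylase complex. CDKN1A had an implied 359 CPM in AGO2_KO cells, 158 CPM in ANKRD52_KO cells and 299 CPM in the double knockout, against 143 CPM in parental cells. In the authors' deposited tables it rose 2.52-fold in AGO2_KO cells (log2 fold change 1.33, SE 0.16, adjusted p = 2.46e-13) and 2.10-fold in the double knockout (1.07, SE 0.16, adjusted p = 1.60e-10). The value in ANKRD52_KO cells was 0.14 (adjusted p = 0.602) in the authors' deposited table. CDKN1A was thereby one of the 7 members highest in AGO2_KO cells.

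BTG2 was at an implied 89.5 CPM in AGO2_KO cells, 66.6 CPM in ANKRD52_KO cells and 91.2 CPM in the double knockout, against 51.6 CPM in parental cells. It rose 1.73-fold in AGO2_KO cells and 1.77-fold in the double knockout (adjusted p = 1.30e-05 and 1.15e-07), and its ANKRD52_KO value of 0.37 was not called (adjusted p = 0.0626), in the authors' deposited tables. The polo-like kinase PLK2 stood at 161 CPM in AGO2_KO cells, 231 CPM in ANKRD52_KO cells and 263 CPM in the double knockout, against 99 CPM in parental cells. In the authors' deposited tables PLK2 rose 2.33-fold in ANKRD52_KO cells (adjusted p = 0.0131) and 2.66-fold in the double knockout (adjusted p = 0.000727), and its AGO2_KO value of 0.70 carried an SE of 0.37 (adjusted p = 0.247). PLK2 was therefore called above the parental line in both groups labelled with an ANKRD52 knockout. It was not called in the direct comparison of either group with AGO2_KO cells. The related kinase PLK3 rose 1.47-fold in AGO2_KO cells (adjusted p = 0.00403) in the authors' deposited table, with 31.0 CPM in AGO2_KO cells, 17.0 CPM in ANKRD52_KO cells and 22.1 CPM in the double knockout, against 21.1 CPM in parental cells. GADD45A, a damage-induced stress sensor, fell by 0.55 on the log2 scale in ANKRD52_KO cells (SE 0.20, adjusted p = 0.0476) in the authors' deposited table, and its double knockout value of 0.25 was not called (adjusted p = 0.313).

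**Figure D2:**
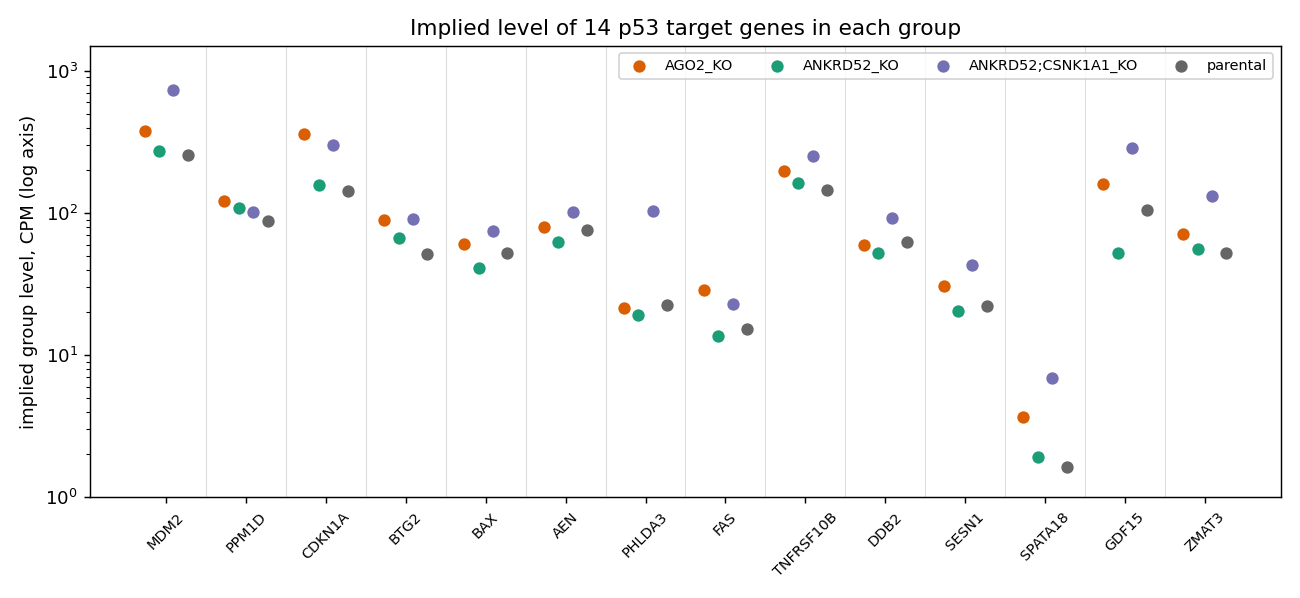
Implied level in CPM (vertical log axis) of 14 p53 target genes, 1 point for each of AGO2_KO, ANKRD52_KO, the double knockout and the parental line, with no error bars since values per library were not analysed. CDKN1A and FAS are highest in AGO2_KO cells, and MDM2, PHLDA3 and GDF15 are highest in the double knockout.

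Of the 8 genes of intrinsic cell death and its control, 6 rose in the double knockout, where 22.9% of all genes rose, in the authors' deposited table. In AGO2_KO cells 1 of the 8 rose, against 3.38% of all genes, and in ANKRD52_KO cells 2 fell and 0 rose, against 6.04% and 7.62% of all genes, in the authors' deposited tables. BAX, which opens the outer mitochondrial membrane, stood at an implied 60.4 CPM in AGO2_KO cells, 41.4 CPM in ANKRD52_KO cells and 74.3 CPM in the double knockout, against 52.0 CPM in parental cells. It fell by 0.33 in ANKRD52_KO cells (SE 0.11, adjusted p = 0.0224) and rose 1.43-fold in the double knockout (adjusted p = 1.16e-05) in the authors' deposited tables. The nuclease gene AEN behaved alike, with a fall of 0.28 in ANKRD52_KO cells (adjusted p = 0.00568) and a 1.32-fold rise in the double knockout (adjusted p = 2.19e-06) in the authors' deposited tables. For both genes the parental level lay between those of ANKRD52_KO cells and the double knockout.

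PHLDA3, which holds back the kinase AKT, had an implied 21.6 CPM in AGO2_KO cells, 19.3 CPM in ANKRD52_KO cells and 104 CPM in the double knockout, against 22.7 CPM in parental cells. Its 4.58-fold rise in the double knockout (log2 fold change 2.20, SE 0.23, adjusted p = 3.16e-20) had no counterpart in the authors' deposited tables of the single knockouts, where the values were -0.07 and -0.23 (adjusted p = 0.899 and 0.545). PMAIP1, which encodes the BH3 protein NOXA, rose 1.67-fold in AGO2_KO cells (adjusted p = 0.0288) and 1.70-fold in the double knockout (adjusted p = 0.00318) in the authors' deposited tables. The oxidoreductase TP53I3 and PIDD, the scaffold of the caspase-2 complex, rose 2.05-fold and 1.35-fold in the authors' deposited table of the double knockout (adjusted p = 0.000217 and 0.00629). BBC3, which encodes the BH3 protein PUMA, was called in 0 of the 3 tables and stood at 15.3 CPM in AGO2_KO cells, 12.8 CPM in ANKRD52_KO cells and 13.9 CPM in the double knockout, against 15.6 CPM in parental cells. TRIAP1, a small mitochondrial survival protein, was likewise called in 0 of 3, with log2 fold changes of 0.21, -0.16 and 0.08 in the authors' deposited tables.

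Among the death receptors, FAS and TNFRSF10B (DR5) start the extrinsic death pathway. FAS stood at an implied 28.7 CPM in AGO2_KO cells, 13.6 CPM in ANKRD52_KO cells and 22.9 CPM in the double knockout, against 15.4 CPM in parental cells. It rose 1.87-fold in AGO2_KO cells (log2 fold change 0.90, SE 0.21, adjusted p = 0.00229) and 1.49-fold in the double knockout (adjusted p = 0.0196) in the authors' deposited tables. TNFRSF10B rose 1.36-fold in AGO2_KO cells (adjusted p = 0.000604) and 1.75-fold in the double knockout (adjusted p = 3.93e-15) in the authors' deposited tables, with 197 CPM in AGO2_KO cells, 163 CPM in ANKRD52_KO cells and 252 CPM in the double knockout, against 144 CPM in parental cells. The decoy receptor TNFRSF10C rose 2.44-fold in the double knockout (adjusted p = 8.88e-05) in the authors' deposited table, and its AGO2_KO value of 0.84 was not called (adjusted p = 0.0646). TNFRSF10A (DR4) was called in 0 of the 3 knockouts, at 0.32, -0.11 and 0.22 in the authors' deposited tables. The ectodysplasin receptor EDA2R had an implied 7.23 CPM in the double knockout, against 0.0144 CPM in parental cells, a call with an adjusted p of 3.95e-14 in the authors' deposited table. The EDA2R levels in AGO2_KO, ANKRD52_KO and parental cells all lay under the 0.0345 CPM that 3 reads over a group would give, so no fold is given. None of the 5 receptor genes passed in ANKRD52_KO cells in the authors' deposited table, where edgeR gave adjusted p-values of 0.238 for TNFRSF10B, 0.658 for FAS and 0.930 for TNFRSF10C.

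The DNA that p53 binds is a response element of 2 copies of a half-site of 10 bases. It was searched in RefSeq promoter windows on GRCh38.p14, from 250 bases before to 50 after a gene's start, with at most 1 base between the half-sites, both 4-base cores kept and at most 2 mismatches in all. The element reads alike on both strands. Of the 30 members with a window 3 held it, 10%, against 97 of 27305 genes, 0.355%. They are FAS, DDB2 and AEN, and their elements are shown because they are the members' only stretches of this kind in these windows. A match is a description and no evidence of binding.
FAS element: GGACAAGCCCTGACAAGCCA
DDB2 element: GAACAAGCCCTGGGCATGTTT
AEN element: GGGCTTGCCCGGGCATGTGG

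The DDB2 element, at chr11:47214979-47214999 on the plus strand, had 0 mismatches and 1 base between its half-sites, and it begins 5 bases after the start. The AEN element, at chr15:88621306-88621325 on the plus strand, had 2 mismatches and begins 34 bases before the start. The FAS element had 2 mismatches and begins 122 bases before the start used by RefSeq. It is shown in capitals within the 250 bases before that start, chr10:88991181-88991430 on the plus strand, which overlap no exon annotated in GENCODE 29.
FAS promoter: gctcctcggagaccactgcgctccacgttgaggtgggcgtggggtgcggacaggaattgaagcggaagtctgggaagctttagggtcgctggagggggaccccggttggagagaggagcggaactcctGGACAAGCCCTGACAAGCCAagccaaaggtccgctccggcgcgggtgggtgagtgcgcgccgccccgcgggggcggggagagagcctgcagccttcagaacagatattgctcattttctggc
All 3 genes with the element rose in the double knockout and their AGO2_KO values differed, since FAS rose there while DDB2 stood at -0.07 (adjusted p = 0.767) and AEN at 0.06 (adjusted p = 0.694) in the authors' deposited table.

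Among the repair genes DDB2, which recognises ultraviolet lesions, rose 1.49-fold in the double knockout (log2 fold change 0.57, SE 0.12, adjusted p = 6.31e-06) in the authors' deposited table. Its implied levels were 59.3 CPM in AGO2_KO cells, 52.7 CPM in ANKRD52_KO cells and 93.0 CPM in the double knockout, against 62.4 CPM in parental cells. RRM2B, the ribonucleotide reductase subunit that supplies nucleotides for repair, rose 1.6-fold in the double knockout (adjusted p = 0.000218) in the authors' deposited table. The lesion-bypass polymerase POLH rose 1.36-fold in AGO2_KO cells (adjusted p = 0.00502) and 1.21-fold in the double knockout (adjusted p = 0.0311) in the authors' deposited tables. XPC, which starts nucleotide excision repair, was called in 0 of 3, at -0.09, -0.08 and -0.04 in the authors' deposited tables.

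Of the 6 genes of metabolism and autophagy, 3 rose in AGO2_KO cells, 1 rose and 1 fell in ANKRD52_KO cells, and 5 rose in the double knockout, where 3.38%, 7.62% and 22.9% of all genes rose and 6.04% fell in ANKRD52_KO cells. C12orf5 encodes TIGAR, which lowers glycolytic flux, and stood at an implied 64.1 CPM in AGO2_KO cells, 52.2 CPM in ANKRD52_KO cells and 108 CPM in the double knockout, against 40.4 CPM in parental cells. It rose 1.58-fold in AGO2_KO cells (adjusted p = 0.000521) and 2.66-fold in the double knockout (adjusted p = 3.20e-21), and its ANKRD52_KO value was 0.37 (adjusted p = 0.0604), in the authors' deposited tables. SESN1, an inhibitor of mTORC1 signalling, rose by 0.48 and 0.97 on the log2 scale in AGO2_KO cells and the double knockout (adjusted p = 0.0177 and 3.93e-11) in the authors' deposited tables. SPATA18, which acts in mitochondrial quality control, was low throughout, at 3.65 CPM in AGO2_KO cells, 1.94 CPM in ANKRD52_KO cells and 6.91 CPM in the double knockout, against 1.64 CPM in parental cells. Its rises were 2.22-fold in AGO2_KO cells (SE 0.31 on the log2 scale, adjusted p = 0.0104) and 4.20-fold in the double knockout (adjusted p = 7.19e-10) in the authors' deposited tables.

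TP53INP1, an autophagy and death factor, rose 1.67-fold in ANKRD52_KO cells (adjusted p = 0.0149) and 2.43-fold in the double knockout (adjusted p = 3.23e-07), with an AGO2_KO value of 0.67 (adjusted p = 0.0552), in the authors' deposited tables. The implied levels were 65.3 CPM in AGO2_KO cells, 68.8 CPM in ANKRD52_KO cells and 100.1 CPM in the double knockout, against 41.1 CPM in parental cells. DRAM1, a lysosomal regulator of autophagy, fell by 0.29 in ANKRD52_KO cells (adjusted p = 0.0319) and rose 1.26-fold in the double knockout (adjusted p = 0.00276) in the authors' deposited tables. FDXR, the mitochondrial ferredoxin reductase, was called in 0 of 3, at 0.14, -0.26 and 0.18 in the authors' deposited tables.

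Of the remaining 6 genes, the secreted stress hormone GDF15 moved in opposite directions in the single knockouts. Its implied levels were 159 CPM in AGO2_KO cells, 52.7 CPM in ANKRD52_KO cells and 288 CPM in the double knockout, against 104 CPM in parental cells. In the authors' deposited tables it rose 1.53-fold in AGO2_KO cells (log2 fold change 0.61, SE 0.17, adjusted p = 0.0141), fell by 0.99 in ANKRD52_KO cells (SE 0.17, adjusted p = 1.98e-06) and rose 2.76-fold in the double knockout (1.46, adjusted p = 1.43e-15). GDF15 was the single member called higher in AGO2_KO cells and lower in ANKRD52_KO cells.

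ZMAT3, an RNA-binding zinc finger protein, rose 1.36-fold in AGO2_KO cells (adjusted p = 0.00797) and 2.53-fold in the double knockout (adjusted p = 1.04e-27), and RPS27L, a ribosomal protein paralog, rose 1.4-fold in AGO2_KO cells and 1.58-fold in the double knockout (adjusted p = 0.00367 and 3.28e-07), in the authors' deposited tables. The antiviral gene TRIM22 stood at 0.703 CPM in AGO2_KO cells, 0.239 CPM in ANKRD52_KO cells and 4.09 CPM in the double knockout, against 0.123 CPM in parental cells. It rose by 2.51 on the log2 scale in AGO2_KO cells (SE 0.75, adjusted p = 0.0229) and by 5.05 in the double knockout (SE 0.78, adjusted p = 1.67e-09) in the authors' deposited tables. NINJ1, which ruptures the membrane of dying cells, was called in 0 of 3 tables, with 34.5 CPM in AGO2_KO cells, 31.9 CPM in ANKRD52_KO cells and 32.8 CPM in the double knockout, against 34.6 CPM in parental cells. KITLG, the ligand of the KIT receptor, was also called in 0 of 3, at -0.25, -0.03 and -0.36 in the authors' deposited tables, the last with an SE of 0.22 (adjusted p = 0.183).

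The calls of the 38 genes over the 3 tables fell into a few patterns. The most frequent, held by 13 genes, was a rise in AGO2_KO cells and in the double knockout without a call in ANKRD52_KO cells, and it included MDM2, CDKN1A, BTG2, PMAIP1, FAS, TNFRSF10B, SESN1 and ZMAT3. A rise called in the double knockout alone was held by 8 genes, CCNG1, TP53I3, PIDD, PHLDA3, TNFRSF10C, EDA2R, DDB2 and RRM2B. BAX, AEN and DRAM1 fell in ANKRD52_KO cells and rose in the double knockout. A further 8 genes, MDM4, BBC3, TRIAP1, TNFRSF10A, XPC, FDXR, KITLG and NINJ1, were called in 0 of the 3 tables. The share of all genes that holds each pattern was not counted, so these counts only describe the members. Over all genes 6.1% were called in AGO2_KO cells, 13.7% in ANKRD52_KO cells and 43.0% in the double knockout. The tables share the parental libraries, and a call missed in 1 knockout does not show a difference between knockouts.

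Differences between the knockouts were therefore tested directly, for the 36 members whose mean log2 CPM was 1 or more, with approximate SEs and adjustment over all 11877 such genes. The double knockout minus ANKRD52_KO compares lines both labelled with an ANKRD52 knockout, of which the first is also labelled with a CSNK1A1 knockout. ANKRD52 RNA stood at 0.03 over the parental line in ANKRD52_KO cells and at -0.65 in the double knockout. Loss of CSNK1A1 cannot be told apart from other differences between these lines. The comparison gave 24 members higher and 0 lower (26 and 0 at an unadjusted p under 0.05). Over all genes 34.5% were called, 18.1% higher and 16.3% lower. The median difference of the members was 0.65, against 0.00 over all genes. GDF15 differed most, with 288 CPM in the double knockout and 52.7 CPM in ANKRD52_KO cells, a 5.46-fold difference (log2 difference 2.45, SE 0.17, adjusted p = 6.99e-43). MDM2 differed by 1.43 (SE 0.11, adjusted p = 5.44e-36), PHLDA3 by 2.43 (SE 0.22, adjusted p = 2.82e-25), ZMAT3 by 1.23 (SE 0.12, adjusted p = 1.50e-23) and AEN by 0.69 (SE 0.08, adjusted p = 9.20e-17). All 4 death receptor genes tested were higher in the double knockout than in ANKRD52_KO cells. PPM1D was not called, with a difference of -0.09 and a 95% interval of -0.25 to 0.08, and neither was TP53INP1, at 0.54 (adjusted p = 0.0529).

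The double knockout minus AGO2_KO gave 15 members higher and 2 lower, where 42.6% of all genes were called, 21.6% higher and 21% lower. PHLDA3 had the smallest adjusted p, at a difference of 2.26 (SE 0.22, adjusted p = 4.32e-22), with 104 CPM in the double knockout and 21.6 CPM in AGO2_KO cells, followed by MDM2 at 0.97 (adjusted p = 6.47e-17), ZMAT3 at 0.89 (adjusted p = 8.91e-13), DDB2 at 0.65 (adjusted p = 2.73e-07) and C12orf5 at 0.75 (adjusted p = 1.41e-06). The 2 members lower in the double knockout were PLK3, at -0.49 (SE 0.14, adjusted p = 0.00181), and PPM1D, at -0.25 (SE 0.08, adjusted p = 0.00810). CDKN1A was not called between these lines, at -0.26 with a 95% interval of -0.57 to 0.04, nor was BTG2, at 0.03 with an interval of -0.25 to 0.31. With the sum in place of the mean of the squared SEs, 9 members stayed called, all higher. The share of all genes called with that sum is not given, so the loss cannot be read as particular to the members.

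ANKRD52_KO minus AGO2_KO gave 0 members higher and 17 lower, where 9.43% of all genes were called, 5.52% higher and 3.91% lower (0 and 22 members at an unadjusted p under 0.05). The median difference of the members was -0.34. The members with the smallest adjusted p were GDF15 at -1.6 (SE 0.17, adjusted p = 1.98e-16), CDKN1A at -1.19 (SE 0.16, adjusted p = 5.18e-11), PLK3 at -0.86 (SE 0.14, adjusted p = 1.85e-07), RPS27L at -0.71 (SE 0.12, adjusted p = 7.32e-07) and BAX at -0.55 (SE 0.11, adjusted p = 4.75e-05). CDKN1A thus stood at 158 CPM in ANKRD52_KO cells and 359 CPM in AGO2_KO cells. With the sum of the squared SEs 6 members stayed called, all lower, and the share of all genes called is again not given.

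**Figure D3:**
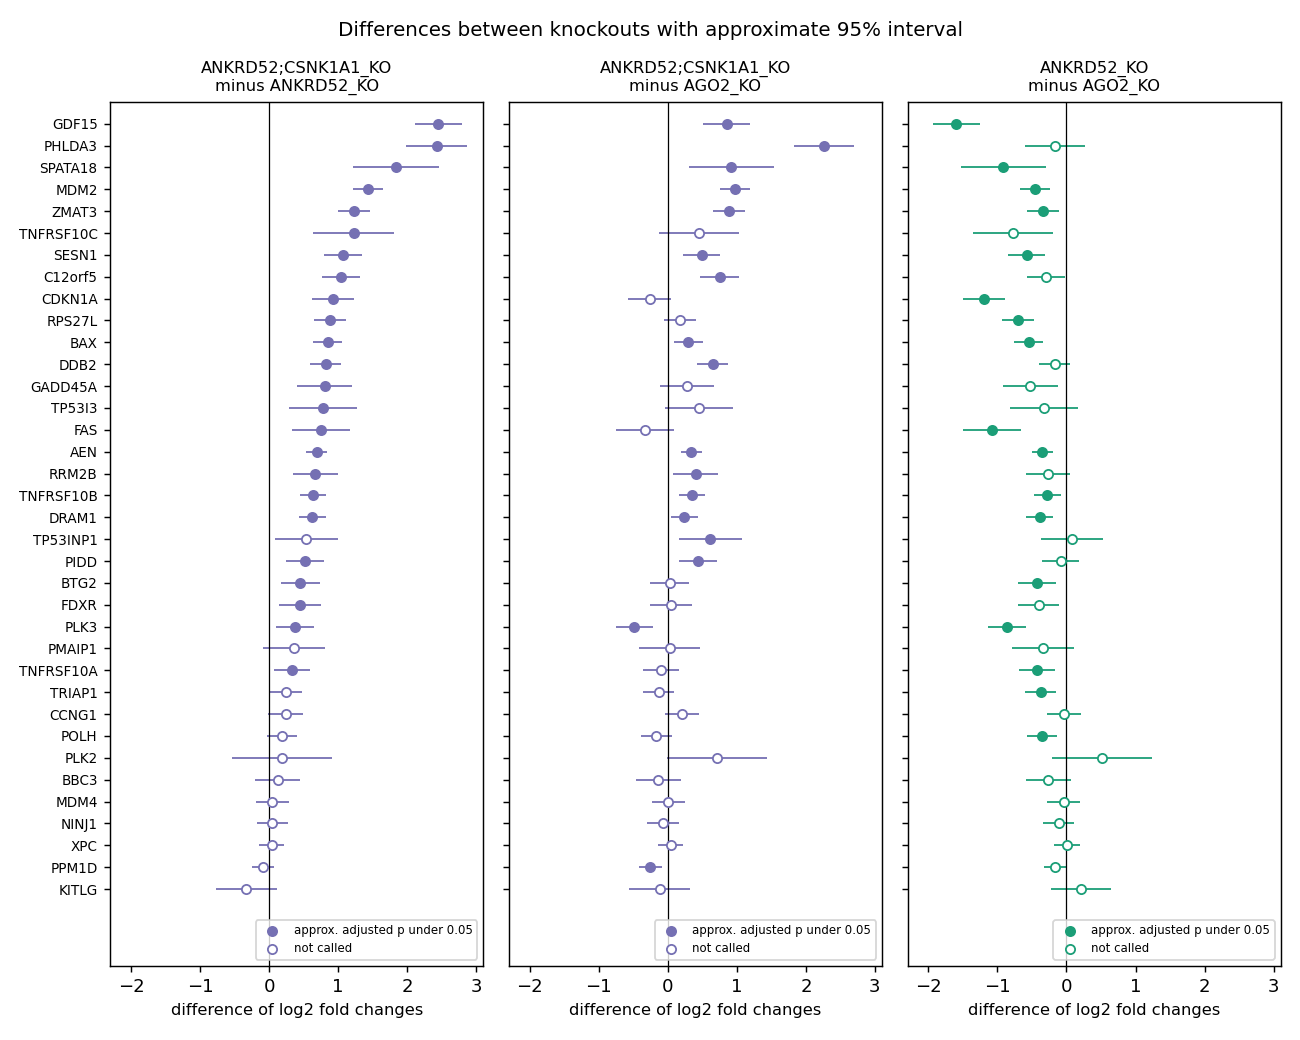
Difference of log2 fold changes (horizontal axis) between pairs of knockouts for 36 p53 target genes, ordered by the first panel, with approximate 95% intervals. Filled points have an approximate adjusted p under 0.05. Filled points lie right of 0 in the first panel and left of 0 in the last, and in the middle panel PLK3 and PPM1D lie left of 0.

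The distribution of the fold changes shows how far the members stood from the rest. In AGO2_KO cells 28 of the 38 genes had a log2 fold change above 0, in ANKRD52_KO cells 17, and in the double knockout 33, in the authors' deposited tables. The members' curve runs right of the curve of all genes in AGO2_KO cells and in the double knockout and crosses it in ANKRD52_KO cells.

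**Figure D4:**
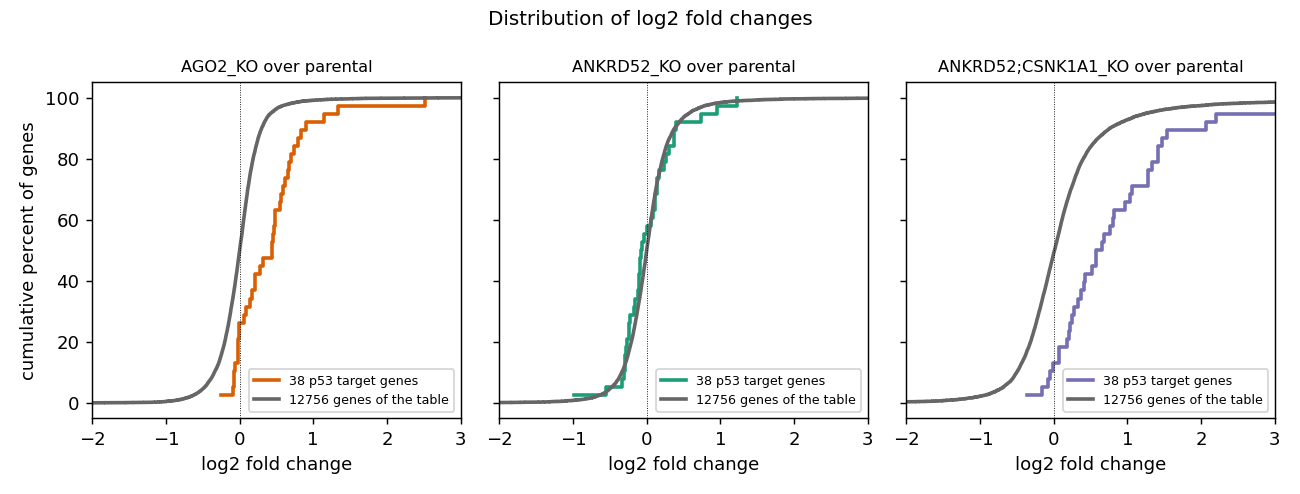
Cumulative percent of genes (vertical axis) by log2 fold change over the parental line (horizontal axis) for the 38 p53 target genes and for the 12756 genes of the table, in each knockout. Values beyond the axis, EDA2R and TRIM22 in the double knockout among them, are not drawn. The median of the members is 0.44, -0.07 and 0.62 in the 3 panels, against 0.00, 0.00 and 0.01 for all genes.

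The other genes of the pathway were followed as lists. Of 23 measured regulators of p53, 0 were called in AGO2_KO cells (2 higher and 4 lower at an unadjusted p under 0.05 with edgeR), 1 rose and 0 fell in ANKRD52_KO cells, and 3 rose and 6 fell in the double knockout. The shares in the double knockout, 13.0% higher and 26.1% lower, stood beside 22.9% and 20.1% of all genes, so the regulators are given as values and not as a group that moved. In the double knockout the smallest adjusted p-values of regulators in the authors' deposited table were those of CDKN2A, whose products include the MDM2 inhibitor ARF, at -1.07 (adjusted p = 5.06e-13), the corepressor TRIM28 at -0.62 (adjusted p = 1.38e-09), the ribosomal protein RPL5 at -0.41 (adjusted p = 0.000109) and the deubiquitinase USP10 at -0.33 (adjusted p = 0.000605). Values per gene do not separate the transcripts of CDKN2A.

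Of 61 further published p53 targets that are not among the 38, 6 rose and 0 fell in AGO2_KO cells, 6 rose and 3 fell in ANKRD52_KO cells, and 36 rose and 1 fell in the double knockout. The shares that rose were 9.84%, 9.84% and 59.0%, against 3.38%, 7.62% and 22.9% of all genes, so in ANKRD52_KO cells, where 4.92% fell against 6.04% of all genes, these targets lay near the background. Their medians were 0.15, 0.07 and 0.44 in the authors' deposited tables. In the authors' deposited table of the double knockout, the sulfatase SULF2 rose by 2.42 (adjusted p = 5.53e-31), the transcription factor HES2 by 1.71 (adjusted p = 3.64e-22), FAM210B by 1.13 (adjusted p = 4.99e-18) and IER5 by 0.90 (adjusted p = 6.92e-12). The RNA sensor TLR3 rose by 1.93 in AGO2_KO cells and 1.5 in ANKRD52_KO cells (adjusted p = 2.05e-05 and 0.000668), and the repressor PRDM1 fell by 2.29 in ANKRD52_KO cells (adjusted p = 4.33e-05), in the authors' deposited tables.

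Cell cycle genes that p53 is known to lower through p21 and the DREAM complex were lower in the double knockout. Of 30 such genes, 20 fell and 1 rose in the double knockout, where 20.1% of all genes fell. In each single knockout 2 fell and 0 rose, a falling share of 6.67%. Over all genes 2.72% fell in AGO2_KO cells and 6.04% in ANKRD52_KO cells, so the share in ANKRD52_KO cells lay near the background. The median was -0.13 in AGO2_KO cells, -0.11 in ANKRD52_KO cells and -0.29 in the double knockout. The replication helicase subunits MCM5 and MCM4 fell by 0.86 and 0.73, the mitotic activator CDC20 by 0.64 and cyclin B1 (CCNB1) by 0.46 in the authors' deposited table of the double knockout, and TOP2A rose by 0.27 (adjusted p = 0.0253). In AGO2_KO cells the falls called in the authors' deposited table were MCM2 at -0.35 (adjusted p = 0.0122) and MCM5 at -0.32 (adjusted p = 0.0499).

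**Figure D5:**
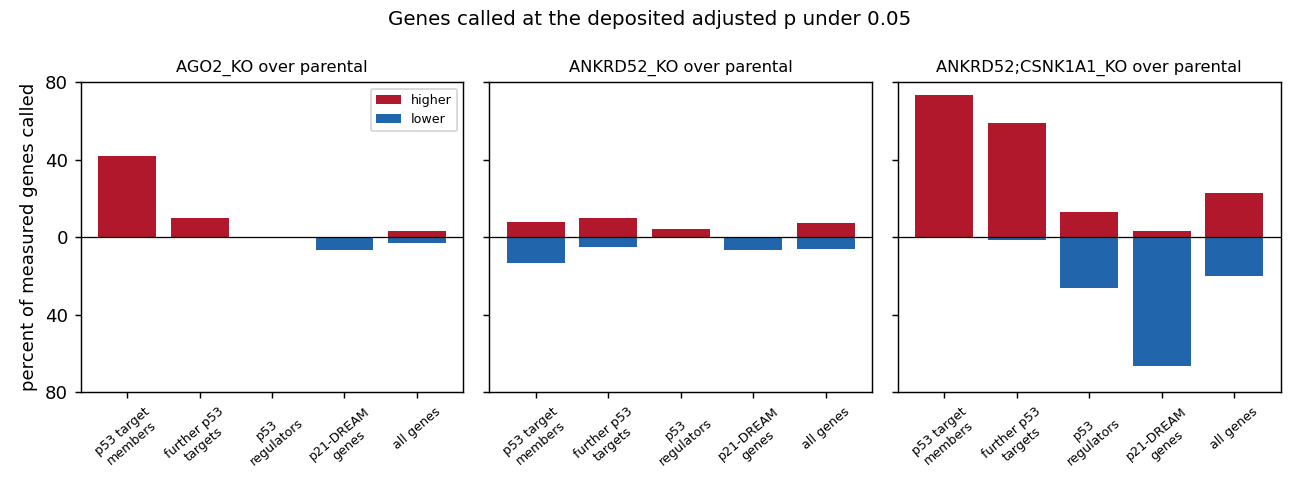
Percent of measured genes called higher (red, upward) and lower (blue, downward) at a deposited adjusted p under 0.05, for the p53 target genes, the further p53 targets, the p53 regulators, the p21-DREAM genes and all genes, in each knockout. In the double knockout 73.7% of the p53 targets rose and 66.7% of the p21-DREAM genes fell, against 22.9% and 20.1% of all genes.

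Markers of cell identity moved in the double knockout as well. Of 8 measured epithelial markers 6 rose there and 0 fell, where 22.9% of all genes rose. In ANKRD52_KO cells 2 fell and 0 rose, where 6.04% of all genes fell. These were CDH1 at -1.33 (adjusted p = 0.0195) and EPCAM at -0.81 (adjusted p = 0.000545) in the authors' deposited table. The summed implied level of the 8 was 3422 CPM in AGO2_KO cells, 3184 CPM in ANKRD52_KO cells and 8699.8 CPM in the double knockout, against 3318 CPM in parental cells. The intestinal regulator CDX2 rose 6.36-fold in the authors' deposited table of the double knockout. Of 12 markers of blood, endothelium and fibroblasts, 4 were measured, with a summed level of 19.5 CPM in AGO2_KO cells, 15.8 CPM in ANKRD52_KO cells and 26.3 CPM in the double knockout, against 16.7 CPM in parental cells. LYZ and VWF rose in the double knockout, to 8.63 and 2.53 CPM against 0.0788 and 0.530 CPM in parental cells, CD68 fell, and COL1A1 was not called. The part of these changes in the p53 target results was not tested.

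Because AGO2 carries microRNAs, the 3' UTRs of the members were read for 7-base matches to the seeds of 6 microRNA families abundant in epithelial or tumour cells. 3' UTRs came from GENCODE 29, 1 transcript a gene, read on the sense strand, and mature microRNAs from RefSeq on GRCh38.p14. Seeds are in capitals, and the 2 families shown are those whose sites are shown.
hsa-miR-17-5p: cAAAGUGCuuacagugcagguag
hsa-miR-200b-3p: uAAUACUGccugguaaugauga

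A miR-17 match, GCACTTT, was found in 14 of the 38 members, against 25.7% of 11471 genes. In AGO2_KO cells, where 3.38% of all genes rose, 8 of these 14 rose in the authors' deposited table, with a median log2 fold change of 0.45. Of the 24 members without a match 8 rose, with a median of 0.24. This split was not made over all genes. The matches of POLH, C12orf5, DRAM1, RPS27L and ZMAT3 lie in stretches that are nearly the same in other members. So do the second matches of MDM2 and MDM4, and the 14 thus do not rest on unlike sites alone. CDKN1A had a pair of matches, shown in capitals with the bases around them as in each site here, next to 1 of the 2 matches of MDM2 and the matches of AEN, EDA2R and TRIM22.
CDKN1A first: agaagtaaacagatgGCACTTTgaa
CDKN1A second: cctccccagttcattGCACTTTgat
MDM2, the first of 2: tctggcaggtagtaaGCACTTTtaa
AEN: gtggttttgctaatgGCACTTTaca
EDA2R: tggcacatctacctaGCACTTTagg
TRIM22: tttattaaatgtaagGCACTTTtct

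A miR-200b match, CAGTATT, was found in 10 of the 38 members, against 19.7% of 11471 genes. The 3 members that rose in ANKRD52_KO cells, PPM1D, PLK2 and TP53INP1, all held it, in the authors' deposited table, where 7.62% of all genes rose. Of the 28 members without it 0 rose. The split rests on these 3 genes and was not made over all genes. The median log2 fold change in ANKRD52_KO cells was 0.33 with a match and -0.11 without. The sites of PPM1D and PLK2 are shown beside those of some of the members not called there, PMAIP1, SESN1 (the first of 2) and MDM4.
PPM1D: cagtctctgaatacaCAGTATTcag
PLK2: ttacagcccaaagagCAGTATTtat
PMAIP1: cacatctgttttcttCAGTATTact
SESN1: acaggctgccattcaCAGTATTttg
MDM4: aacaacgatgaatttCAGTATTacg

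The 10 genes with the match also had medians of 0.57 against 0.21 in AGO2_KO cells and 1.13 against 0.47 in the double knockout, with and without a match, in the authors' deposited tables. Matches to the other 4 seeds were found in 9 members for miR-19 (16.1% of genes), 4 for let-7 (11.5%), 13 for miR-15/16 (25.6%) and 4 for miR-21 (9.91%). In AGO2_KO cells the medians with and without a match were 0.44 and 0.44 for miR-19 (4 of 9 and 12 of 29 rose), 0.48 and 0.44 for let-7 (2 of 4 and 14 of 34), 0.44 and 0.44 for miR-15/16 (6 of 13 and 10 of 25) and 0.52 and 0.30 for miR-21 (4 of 4 and 12 of 34), in the authors' deposited table. In ANKRD52_KO cells 1 member with a miR-17 match, 1 with a miR-19 match and 2 with a miR-15/16 match rose, and 0 with a let-7 or miR-21 match. Over all genes 3.38% rose in AGO2_KO cells and 7.62% in ANKRD52_KO cells, and the splits by match were not made over all genes. UTR length was not accounted for, and these splits were not tested.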

How the data were processed

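Stranded polyA RNA libraries from HCT116 cells, 12 in 4 groups, were read with a 75 cycle kit (labels' protocols). Build hg19 and the tools edgeR 3.8.6, featureCounts 1.4.6 and TopHat2 2.0.12 come from the submitters' processing notes, which give no roles, and whether counting used strand is not given in the sources used here. The 3 deposited tables hold the authors' log2 fold changes and mean log2 CPM, their likelihood ratio score as deposited by the authors, and deposited p-values with Benjamini-Hochberg adjusted values over 12756 genes, per the file headers. No per-library values were used, so depth is unknown.

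From these, approximate SEs were made by dividing the size of each log2 fold change by the root of its likelihood ratio. Differences between knockouts used the mean of both squared SEs, as the parental level cancels, with normal p-values adjusted by Benjamini-Hochberg across 11877 genes. Group levels assumed 4 equal groups, and the level of 3 reads an assumed prior count of 0.125. Of the members, 11 overlap an exon of a gene on the opposite strand, among them TP53I3, TNFRSF10B and XPC, whose partners FAM228B, RHOBTB2 and LSM3 are also tabulated, so these are less certain. Table names were matched to RefSeq, 11543 by symbol, 956 by synonym and 257 not. Every member is named. A gene and some sequences that the naming rule or the site search would give are not reported here. Of the other lists up to 4 called genes with the smallest adjusted p are named, and for differences the 5 members with the smallest adjusted p each way. TOP2A, CDX2, LYZ, VWF, CD68 and COL1A1, the markers in the opening and the members named as not called between knockouts were chosen after their values were seen. The members, lists, microRNA families and the sequences shown were chosen with earlier results of these data known. Alternatives were other thresholds, an F distribution, centring on all or on 40 neighbouring genes, a filter on level and other SEs. Tools were matplotlib 3.10.9, pandas 2.3.3, scipy 1.17.1, numpy 2.4.6 and Python 3.11.15.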

Additional observations from a re-analysis of the deposited data

How the results depend on the processing

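No paired analysis was possible because the tables carry no values per library, and leaving out single replicates could not be run for the same reason. With the F distribution, 0 members were called in AGO2_KO cells and 0 in ANKRD52_KO cells, with 0 and 3 calls over all genes. At an adjusted p under 0.01, 3 members remained called in ANKRD52_KO cells and 10 in ANKRD52_KO minus AGO2_KO. The shares of all genes called at that threshold are not given. At that threshold 3 further p53 targets and 0 p21-DREAM genes were called in AGO2_KO cells, and 5 further targets, 0 p21-DREAM genes and 0 regulators in ANKRD52_KO cells. With the sum of the squared SEs, 9 members differed between the double knockout and AGO2_KO and 6 between ANKRD52_KO and AGO2_KO. The matching shares of all genes are not given, so these counts only describe the members. The mean of the members in the double knockout was 1.02 in place of the median of 0.62. The counts of members called in the double knockout, and in the double knockout minus ANKRD52_KO, stayed within 1.5 times under every alternative run.

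Less the median of 40 neighbouring genes, the sign turned for values that were not called. In AGO2_KO cells these were BBC3 (0.051), PIDD (0.048), EDA2R (0.025), NINJ1 (0.0073) and DRAM1 (-0.010), in ANKRD52_KO cells PIDD (0.046), TNFRSF10C (-0.055) and CSNK1A1 (-0.013), and in the double knockout AGO2 (0.020). Calls lost there were PMAIP1 and ZMAT3 in AGO2_KO cells (adjusted p = 0.0908 and 0.0637), BAX and PPM1D in ANKRD52_KO cells (0.0575 and 0.0715), and FAS and PPM1D in the double knockout (0.0935 and 0.111). AGO2 in AGO2_KO cells also lost its call (0.361). Calls gained were BAX and TP53INP1 higher in AGO2_KO cells (0.0324 and 0.0213), and MDM4 and KITLG lower in the double knockout (0.00218 and 0.00870). The cause was not tested.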
